A study of Arabidopsis thaliana with 13 samples.

Results

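Genes for CLE signalling peptides and for receptor kinases of the kind that perceive them were followed across 5 Arabidopsis thaliana root genotypes on the Affymetrix ATH1 array. They are 5 of the 22810 probe sets on the array. Probe sets 254761_at, 257600_at and 251521_at were taken by their names in the platform's probe table, CLE44 (AT4G13195), CLE41 (AT3G24770) and CR4 (AT3G59420). The other 2 probe sets have no gene name there and were chosen by their signals on these arrays. One lies at least 361-fold above Col-0 on every array of both CLE3 overexpression lines and is called the CLE3ox-induced set, and the other lies near 0 in clv1-15 and is called the clv1-15-depleted set. Which gene either of them measures is inferred and not annotated, and they give no independent check of the genotype labels. No probe set carries the name CLE3 or CLV1 (0 each).

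Whole roots were taken from 10-day-old plants grown at 22 °C with 16 h of light and 8 h of darkness on MGRL medium with 0.1 mM KNO3, a low nitrate supply, and 1% sucrose. The groups were wild-type Col-0 (n = 3 arrays), the CLE3 overexpression lines 12-1 and 17-3 in Col-0 (n = 2 each, together called CLE3ox), wild-type Ler (Landsberg erecta, n = 3) and the mutant clv1-15 in Ler (n = 3). The promoter that drives CLE3 and the nature of the clv1-15 lesion are not given in the sources used here. Titles call the arrays biological replicates without saying whether they came from separate cultures, so p-values measure the spread between these samples only.

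CLE genes encode precursors of short secreted peptides that bind leucine-rich repeat receptor kinases on neighbouring cells. CLE3 belongs to a group of root CLE genes induced when nitrogen is scarce, and CLV1 encodes a receptor of such peptides, known in roots from the phloem, where the pair is known to restrain lateral root growth. CLE41 and CLE44 encode the same mature peptide, known as TDIF, which phloem cells release and which the receptor PXY in the procambium perceives, keeping those cells dividing and holding back xylem formation. CR4, also called ACR4, is a receptor-like kinase of the CRINKLY4 type known from the root cap, the epidermis and founder cells of lateral roots, and it acts with the peptide CLE40 in the root tip.

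Values are MAS5 signals on a linear scale. Tests were run with limma on log2(signal + 16), so a fold change from this scale understates the change of a dim probe set. A difference passed the test at an adjusted p (Benjamini-Hochberg over 15922 probe sets) under 0.05. In whole-root RNA, a change in the number of cells of a type and a change in RNA per cell cannot be told apart. Among the root genes fixed as markers, PYK10, EXPA7 and EXPA18 were measured, and PYK10, a root beta-glucosidase, lay above at least 99.9% of probe sets in each of the 5 groups. EXPA7 and EXPA18, which encode expansins of root hair cells, changed between groups. Both were higher in Col-0 than in Ler, by 1.07 and 1.29 on the log2 scale (limma adjusted p = 1.47e-07 and 8.13e-08). PYK10 was lower in Col-0 than in Ler (-0.25, adjusted p = 0.0113, and up to 0.0518 over the alternatives). In that comparison 45.7% of all tested probe sets passed. EXPA7 fell in line 17-3 by 0.45 on the log2 scale (limma adjusted p = 0.0209), a call that ended without the second array of that line (adjusted p = 0.238) or the first or the third of Col-0 (0.0675 and 0.0865), and EXPA18 rose in clv1-15 by 0.68 (adjusted p = 0.00059). The 4 measured markers of green tissue were present as well, none at 0, with summed signals of 889.8 to 991.5 in Col-0, 912.6 to 1037.7 in line 12-1, 1346.3 to 1511.3 in line 17-3, 1122.1 to 1475.2 in Ler and 1665.7 to 1834.0 in clv1-15. On 3 arrays, the second of each CLE3ox line and the third of Col-0, the bioD hybridisation control was between 3894.3 and 4092.7, against 2700.2 to 3241.1 on the others. No label ties those 3 arrays together.

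CLE44 rose in CLE3ox roots, 1.82-fold on the log2(signal + 16) scale. Its signal was 130.1, 154.4 and 146.3 on the Col-0 arrays, 226.3 and 221.1 in line 12-1 and 325.5 and 344.2 in line 17-3. All 4 CLE3ox arrays lay above all 3 Col-0 arrays, and both arrays of line 17-3 above both of line 12-1. The log2 difference between the mean of the lines and Col-0 was 0.86 ± 0.12 (SE), with a limma adjusted p of 0.000794. In this comparison 2.45% of all tested probe sets passed (1.06% higher), and of the 4 genes and probe sets of this group that could be tested 2 passed, CLE44 and the clv1-15-depleted set, both higher. Since CLE44 was known to rise when the genes were chosen, that count is a description.

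Of the lines taken singly, CLE44 passed in line 17-3 and not in line 12-1. For line 17-3 the log2 difference from Col-0 was 1.14 ± 0.14 (limma adjusted p = 0.000291), in a comparison in which 3.34% of probe sets passed. Line 12-1 had 0.59 ± 0.14 (adjusted p = 0.107), against 0.433% passing. The same Col-0 arrays serve both lines. Line 17-3 exceeded line 12-1 by 0.55 ± 0.16, in a comparison in which 0.264% of probe sets passed, with a 95% confidence interval of 0.22 to 0.88 that leaves out 0 but an adjusted p of 0.267 over all probe sets, so the lines are not shown to differ in CLE44. Within the arrays of low bioD signal the CLE3ox difference was 0.87 (adjusted p = 0.0595, 1 array per line and 2 of Col-0), and within those of high bioD signal it was 0.85 (adjusted p = 0.175, 1 array per line and 1 of Col-0).

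In the Ler background CLE44 was dimmer. Ler arrays read 53.1, 54.5 and 37.6, and clv1-15 arrays 62.7, 67.7 and 67.0. Each clv1-15 array lay above each Ler array, yet the log2 difference of 0.36 ± 0.13 did not pass (limma adjusted p = 0.0724, and 0.0417 to 0.245 over the alternatives). Col-0 exceeded Ler by 1.32 ± 0.13 (2.49-fold, adjusted p = 6.33e-07), in a comparison in which 45.7% of all tested probe sets passed (21.2% higher and 24.5% lower in Col-0). Probes of this array follow the Col-0 genome sequence, and sequence differences in Ler were not examined here. From highest to lowest the groups ran line 17-3, line 12-1, Col-0, clv1-15 and Ler, with no overlap between neighbours. Of the 4 neighbouring pairs only Col-0 and clv1-15 differed past the threshold (0.96 ± 0.13, limma adjusted p = 2.25e-05, where 36.6% of probe sets passed), a pair that differs in both accession and genotype.

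CLE41, the other gene for TDIF, followed the same order without passing in CLE3ox. Its signal was 466.9, 432.2 and 334.3 in Col-0, 577.4 and 466.9 in line 12-1 and 707.5 and 566.5 in line 17-3. The lowest CLE3ox array equalled the highest Col-0 array, and line 17-3 lay above Col-0 altogether. The log2 difference between CLE3ox and Col-0 was 0.48 ± 0.14 (95% confidence interval 0.19 to 0.77, limma adjusted p = 0.0852). Line 17-3 had 0.62 ± 0.16 (adjusted p = 0.051) and line 12-1 had 0.34 ± 0.16 (adjusted p = 0.608).

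The CLE41 result moved with the bioD signal. In each CLE3ox line the array with high bioD was the lower for CLE41, and so it was in Col-0. Among low-bioD arrays the lines read 577.4 and 707.5 against 466.9 and 432.2 in Col-0, and among high-bioD arrays 466.9 and 566.5 against 334.3, with no overlap in either set. With the bioD grouping as a block the CLE3ox difference was 0.54 (limma adjusted p = 0.0112) and that of line 17-3 was 0.67 (adjusted p = 0.00618), both past the threshold. Within either set alone it was 0.49 (adjusted p = 0.243) and 0.60 (adjusted p = 0.269). The grouping was drawn from the signals and not from a label.

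In clv1-15 and Ler, CLE41 showed no detectable difference at this number of arrays. The mutant read 278.3, 270.2 and 324.0 and Ler 335.4, 281.7 and 234.0, with overlapping ranges. The log2 difference was 0.04 ± 0.15, with a 95% confidence interval of -0.27 to 0.35 (limma adjusted p = 0.877). Col-0 exceeded Ler by 0.51 ± 0.15 (adjusted p = 0.00961), a call that ended without the first Col-0 array (0.42, adjusted p = 0.0527) or the third Ler array (0.39, adjusted p = 0.0562). In the order of groups, which matched that of CLE44, only the step from Col-0 to clv1-15 passed (0.47 ± 0.15, adjusted p = 0.0197).

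**Figure D1:**
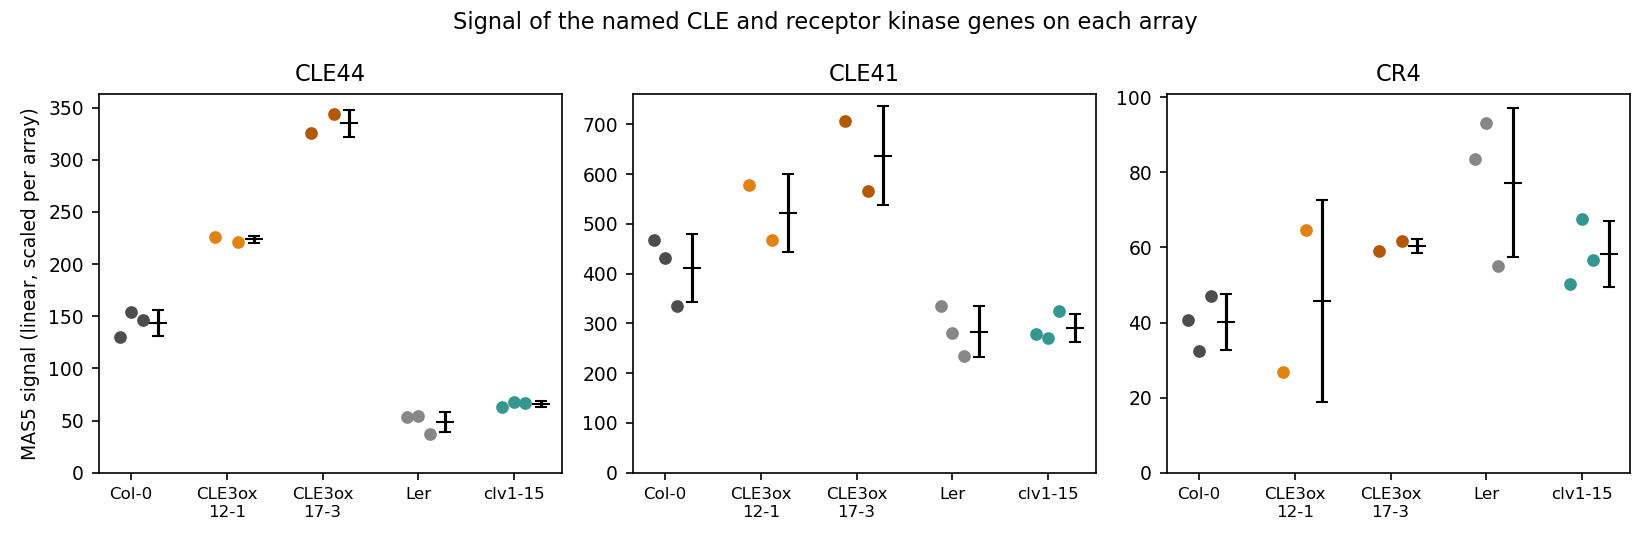
MAS5 signal (linear, from 0) of CLE44, CLE41 and CR4 on each of the 13 arrays; points are arrays, bars the group mean ± SD. CLE44 steps up from Ler (48.4 ± 9.4) to line 17-3 (334.9 ± 13.2) without overlap between groups, CLE41 takes the same order with overlaps, and CR4 is dim in all groups.

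Over the 13 arrays the log2 signals of CLE44 and CLE41 went together, with Pearson's r of 0.93 and Spearman's rho of 0.83. The arrays fall into 5 genotypes, and this correlation describes mainly the differences between them. Once each group's mean was subtracted, r was 0.29, so arrays of a group that were high for one gene were not consistently high for the other.

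**Figure D2:**
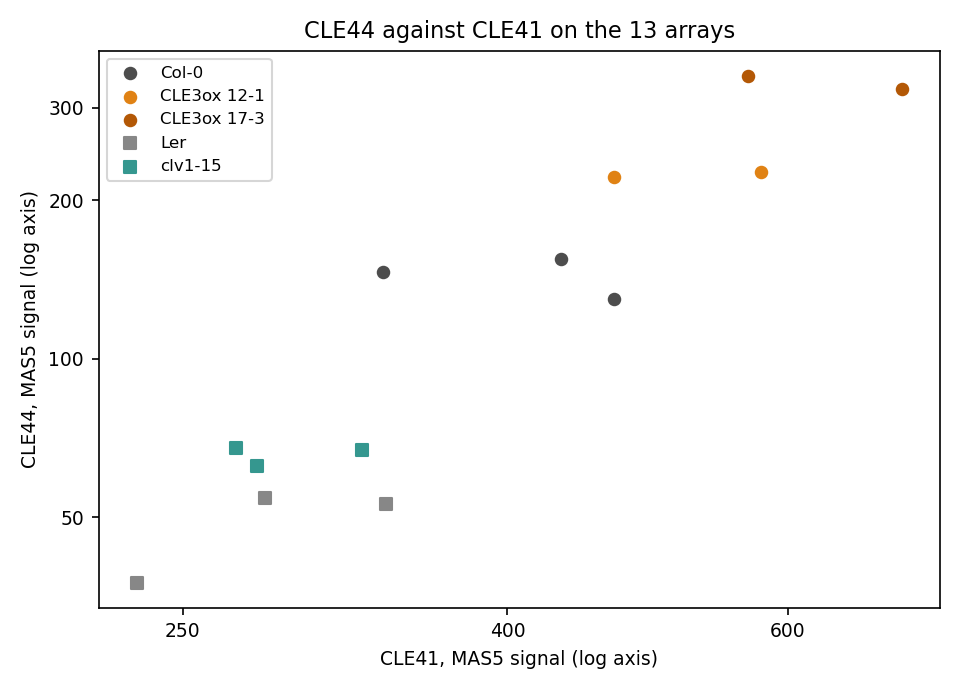
MAS5 signal of CLE44 (vertical, log axis) against CLE41 (horizontal, log axis) on the 13 arrays, by group. Ler and clv1-15 arrays lie at the lower left, Col-0 between, and line 17-3 at the upper right, while within a group the points show no common slope.

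Both TDIF genes are known from the phloem, and 2 of the 18 phloem markers were measured. SWEET11, a sucrose exporter of phloem loading, rose in CLE3ox by 0.92 ± 0.18 (limma adjusted p = 0.00982), from a mean signal of 316.9 ± 114.2 (SD, n = 3) in Col-0 to 546.3 ± 65.1 and 637.6 ± 57.9 in lines 12-1 and 17-3 (n = 2 each). OPS, a gene of early phloem cells, had 0.03 ± 0.18 (adjusted p = 0.964). Within the low-bioD arrays SWEET11 had 0.64 (adjusted p = 0.169, not past the threshold) and within the high-bioD arrays 1.47 (adjusted p = 0.00638). Of the lines taken singly, SWEET11 passed in line 17-3 (1.03 ± 0.21, limma adjusted p = 0.0117) and not in line 12-1 (0.81 ± 0.21, adjusted p = 0.15). The call in line 17-3 ended when only the compared groups were fitted (adjusted p = 0.0684). The summed signal of SWEET11 and OPS was 255.6 to 487.8 in Col-0, 539.4 to 669.1 in line 12-1 and 649.4 to 748.1 in line 17-3. In clv1-15, by contrast, SWEET11 fell by 1.38 ± 0.19 (adjusted p = 0.000243), where CLE44 had a positive difference that did not pass. OPS had -0.58 ± 0.20 there (limma adjusted p = 0.0562). Between the wild types both markers were lower in Col-0, where CLE44 and CLE41 were higher. SWEET11 had -0.78 ± 0.19 (adjusted p = 0.00356) and OPS -1.22 ± 0.20 (adjusted p = 0.000112).

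Markers of green tissue differed between groups as well, and not always as CLE44 did. In line 17-3, where CLE44 passed, 3 of the 4 rose, LHCB4.1 1.42-fold (limma adjusted p = 0.0115), LHCB4.2 2.14-fold (adjusted p = 0.00639) and PSAE-1 1.78-fold (adjusted p = 0.0186). In line 12-1, where CLE44 did not pass, 0 of the 4 did by limma's test, and 0 had an unadjusted p under 0.05. Each of the 3 calls in line 17-3 ended without its second array (adjusted p 0.113 to 0.258). LHCB4.1 also lost its call without the first array of that line (0.0519), and PSAE-1 without the second or the third Col-0 array (0.0598 and 0.0766). Over both lines LHCB4.2 alone passed (0.76 ± 0.17, adjusted p = 0.0275, 1 of 4), and its call ended without any 1 of 6 of the 7 arrays, all but the first of line 17-3 (adjusted p 0.0525 to 0.136), and within the low-bioD or high-bioD arrays alone (0.326 and 0.281). In clv1-15, 2 of the 4 rose, RCA by 0.49 (adjusted p = 0.0142) and LHCB4.1 by 0.43 (adjusted p = 0.00651). The RCA call ended without the third clv1-15 array (0.0531) or the first Ler array (0.0652). Between the wild types, where CLE44 was higher in Col-0, the markers went in both directions. LHCB4.2 was higher in Col-0 (0.93, limma adjusted p = 0.000741), while RCA (-1.04, adjusted p = 6.09e-06) and PSAE-1 (-0.77, adjusted p = 0.00136) were lower. LHCB4.1 did not pass there (0.05, adjusted p = 0.68). Of the 22 xylem and procambium markers 1 was measured, PHV. It had -0.01 ± 0.09 in CLE3ox and -0.04 ± 0.09 in clv1-15 (limma adjusted p = 0.968 and 0.819). PHV was higher in Col-0 than in Ler (0.25 ± 0.09, adjusted p = 0.0407), a call that ended without any 1 of the 6 arrays. Of the 9 root cap and epidermis markers, fixed for CR4, 0 were measured. The part of the phloem, green tissue, xylem and root markers in the CLE44 and CLE41 results was not tested.

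CR4, the receptor-like kinase gene, was dim, with group means above 27.0% to 35.3% of probe sets. Its mean over all arrays was just above the bound of 54.6 below which probe sets were left out. Signals were 40.7, 32.4 and 47.2 in Col-0, 26.8 and 64.7 in line 12-1, 59.0 and 61.6 in line 17-3, 83.5, 93.2 and 55.0 in Ler and 50.3, 67.7 and 56.6 in clv1-15. Both arrays of line 17-3 lay above Col-0, whereas the arrays of line 12-1 lay on either side of it.

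CR4 did not pass in CLE3ox (log2 difference 0.26 ± 0.21, 95% confidence interval -0.19 to 0.71, limma adjusted p = 0.632) or in clv1-15 (-0.31 ± 0.23, interval -0.79 to 0.17, adjusted p = 0.378). Col-0 was lower than Ler by a log2 difference of -0.72 ± 0.23 (adjusted p = 0.017), with no overlap between the wild types. That call ended without the second Col-0 array (adjusted p = 0.0671) or the first or second Ler array (adjusted p = 0.0588 and 0.0761). The Ler arrays, the brightest group for CR4 (mean 77.2, against 40.1 in Col-0), helped to carry it over the bound for dim sets. The comparison of the wild types is therefore not independent of that filter. The order ran Ler, line 17-3, clv1-15, line 12-1 and Col-0, and none of the 4 neighbouring pairs differed past the threshold (limma adjusted p 0.361 to 0.978).

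The CLE3ox-induced probe set was selected on its signal in the CLE3ox lines and Col-0, which is given without a test. It read 11179.6 and 11856.9 in line 12-1 and 13238.8 and 13438.6 in line 17-3, against 31.0, 27.1 and 1.2 in Col-0. Both arrays of line 17-3 were above both of line 12-1. The lowest CLE3ox array was 361-fold above the highest Col-0 array, and the group mean was above that of 99.6% of probe sets in line 12-1 and of 99.8% in line 17-3. On the log2(signal + 16) scale the rise was 380-fold, the next highest being 5.30-fold for 252515_at. Wild-type signals of this set were dim, with means above 18.9% of probe sets in Col-0 and 20.4% in Ler. The log2 rise was therefore 9.95 with a pseudocount of 1 and 7.24 with one of 64.

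The clv1-15 arrays were not used to choose this set, and there it rose as well. They read 88.5, 99.6 and 107.4, against 20.3, 23.0 and 18.8 in Ler, so that the lowest mutant array was 3.85-fold above the highest Ler array. The log2 difference was 1.64 ± 0.25 (3.12-fold on the log2(signal + 16) scale, limma adjusted p = 0.000615), in a comparison in which 15.4% of probe sets passed (6.93% higher). It was the 1 call among the 4 of the group tested there. The probe set passes the filter on dim sets through the CLE3ox arrays. With no filter on dim sets the adjusted p was 0.00229, and over all alternatives the log2 difference ran from 0.94 to 2.20, each past the threshold. At 98.5 ± 9.5 (SD, n = 3) the mutant's mean signal remained far below the 11518.3 ± 478.9 of line 12-1 and the 13338.7 ± 141.3 of line 17-3 (n = 2 each). Col-0 and Ler had means of 19.8 ± 16.2 and 20.7 ± 2.1 (SD, n = 3 each), which were not tested against each other.

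The clv1-15-depleted probe set was selected on its near absence in clv1-15 against Ler, also given without a test. The mutant read 1.6, 6.0 and 5.6 against 1647.0, 1682.7 and 1807.1 in Ler. The lowest Ler array was 274-fold above the highest mutant array. On the log2(signal + 16) scale the mutant was 85.1-fold lower, and the next deepest fall was 26.7-fold, for the unnamed 254452_at. In Ler this set lay above 91.2% of all probe sets and in clv1-15 above 5.97%.

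In the comparison that did not choose it, the clv1-15-depleted set rose in CLE3ox roots. Col-0 arrays read 1585.2, 1617.1 and 1502.9, line 12-1 read 2340.8 and 2372.3, and line 17-3 read 2842.9 and 2481.8. All 4 CLE3ox arrays were above all 3 Col-0 arrays, by at least 1.45-fold between the nearest. The log2 difference was 0.67 ± 0.09 (1.59-fold, limma adjusted p = 0.000473). The set passed in each line alone. In line 12-1 its difference was 0.58 ± 0.11 (limma adjusted p = 0.0168), close in size to that of CLE44 (0.59 ± 0.14), which did not pass there. In line 17-3 the set had 0.75 ± 0.11 (adjusted p = 0.000679). The lines differed by 0.17 ± 0.12, with a 95% confidence interval of -0.07 to 0.42 (adjusted p = 0.868). The call in line 12-1 ended without any 1 of the 5 arrays (both of that line and the 3 of Col-0; adjusted p 0.0569 to 0.277).

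With a pseudocount of 1 this rise kept its size (0.67) and lost its call (limma adjusted p = 0.176). That fit pools the spread over all groups, the clv1-15 arrays at 1.6 to 6.0 included. Fitted on Col-0 and the CLE3ox lines alone, an alternative chosen after seeing the data, the same pseudocount gave an adjusted p of 0.000844. Why the call was lost in the fit on all groups was not tested. Among the high-bioD arrays the difference was 0.69 (adjusted p = 0.129) on 1 array per group. The Col-0 signal was lower than that of Ler by a log2 difference of -0.12, untested because the Ler arrays took part in the choice.

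**Figure D3:**
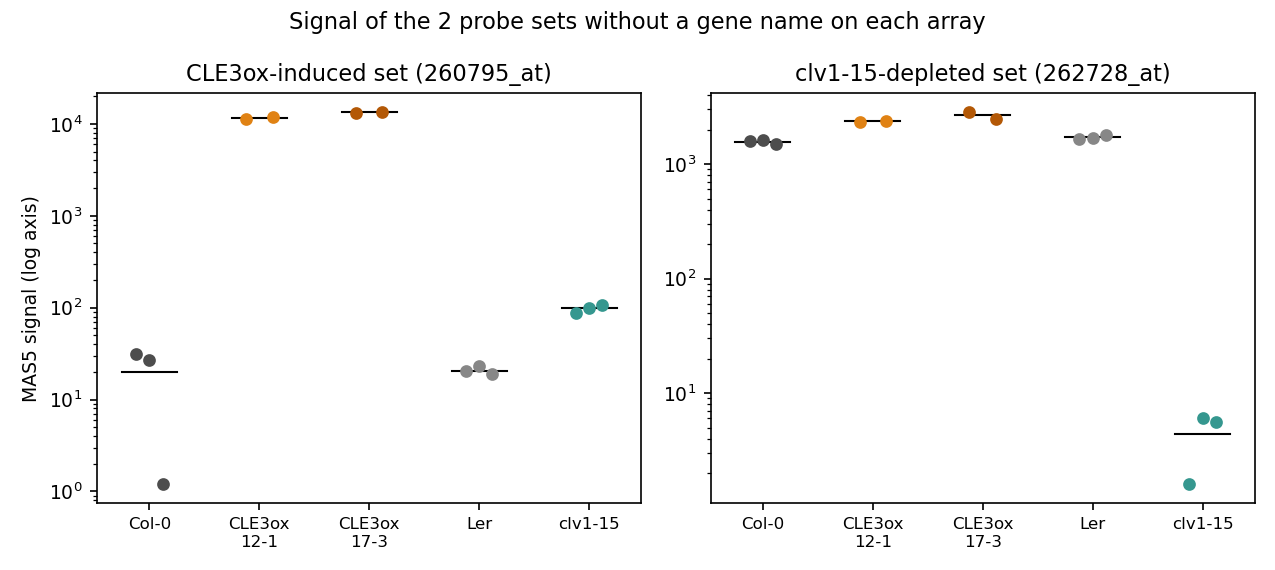
MAS5 signal (log axis) of the CLE3ox-induced and the clv1-15-depleted set on each array; points are arrays and lines group means. The clv1-15 arrays of the CLE3ox-induced set (88.5 to 107.4) lie above both wild types and far below CLE3ox, and the CLE3ox arrays of the clv1-15-depleted set (2340.8 to 2842.9) lie above Col-0 and Ler.

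Across the design, then, each unnamed set also differed in the genotype that did not define it: the CLE3ox-induced set was higher in clv1-15 and the clv1-15-depleted set higher in CLE3ox. These comparisons share no arrays, though the filter and the estimate of the spread in both come from all 13 arrays. For the named genes the difference between the CLE3ox and the clv1-15 effect was tested directly and did not pass, with 0.51 ± 0.17 for CLE44 (limma adjusted p = 0.0739), 0.43 ± 0.20 for CLE41 (adjusted p = 0.18) and 0.58 ± 0.31 for CR4 (adjusted p = 0.255). In that test 11.2% of probe sets passed. CLE44 passed there without the third Ler array (0.64, adjusted p = 0.0239).

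**Figure D4:**
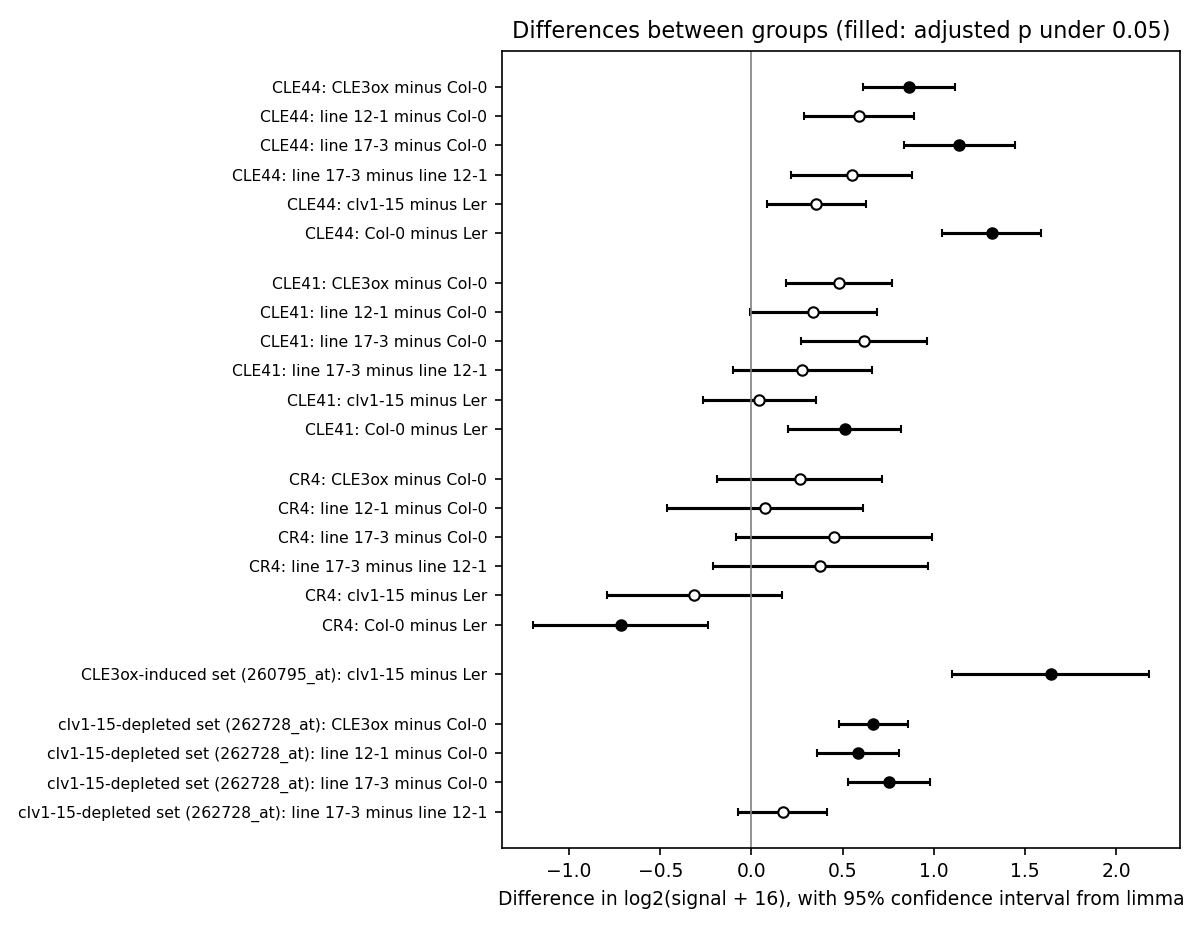
Differences in log2(signal + 16) with 95% confidence intervals from limma for each tested comparison; filled points passed an adjusted p of 0.05. CLE44 (0.86) and the clv1-15-depleted set (0.67) are filled for CLE3ox against Col-0, and the CLE3ox-induced set (1.64) for clv1-15 against Ler.

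Of the 48 names in the CLE peptide list 7 had one, and besides CLE41 and CLE44 none of them passed the filter on dim sets, which is set on the mean over all arrays and is no detection call. CLE40, the root tip peptide linked to CR4, had group means of 9.6 to 22.0, CLE27 of 29.2 to 39.4, CLE26 of 33.97 to 57.85 and CLE21 of 4.0 to 23.6. CLV3, the shoot meristem ligand of CLV1, had 2.0 to 16.0. These genes were not tested.

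The few receptor genes of the CLE pathway that were measured did not pass in CLE3ox or clv1-15. They are too few for a count of 0 to set them apart from all probe sets. CR4, MOL1, which represses cambium activity, and the PXY-like kinase genes PXL1 (AT1G08590) and PXL2 (AT4G28650) were the 4 measured of 29 names. By limma's test 0 of the 4 passed in CLE3ox and 0 in clv1-15, where 2.45% and 15.4% of all probe sets did, and 0 had an unadjusted p under 0.05 in either. Their median log2 difference was 0.07 in CLE3ox and -0.06 in clv1-15, against 0.01 and -0.02 over all probe sets. MOL1 had a mean signal of 579.6 ± 37.1 (SD, n = 3) in Col-0 and 588.2 ± 33.4 and 622.2 ± 115.3 in lines 12-1 and 17-3, a log2 difference of 0.06 ± 0.09 (limma adjusted p = 0.842). PXL1 had -0.05 ± 0.11 in CLE3ox and 0.23 ± 0.12 in clv1-15 (adjusted p = 0.89 and 0.22). POL, a phosphatase gene downstream of CLV1 and the 1 measured of 15 output genes, had 0.17 ± 0.10 and 0.02 ± 0.10 (adjusted p = 0.45 and 0.922).

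Among kinases that perceive other peptides or hormones, 7 of 38 names were measured and 6 passed the filter. In CLE3ox 0 of the 6 passed limma's test, where 2.45% of all probe sets did. GSO1 alone had an unadjusted p under 0.05 there (1 of 6), and the median log2 difference was 0.01. For clv1-15, where 15.4% of all probe sets passed, 1 of the 6 passed and 3 had an unadjusted p under 0.05. Their median there was -0.19, against -0.02 over all probe sets. In clv1-15 BRL1, a brassinosteroid receptor gene of vascular cells, fell by 0.35 ± 0.11 (limma adjusted p = 0.0464), from 202.5 ± 19.0 in Ler to 155.4 ± 20.5 (SD, n = 3 each). That call ended without any of 5 of the 6 arrays, all but the third of clv1-15 (adjusted p 0.0507 to 0.154; 0.024 to 0.154 over all alternatives). FER, a RALF peptide receptor gene with a mean signal of 3252.0 ± 340.2 in Col-0, had 0.10 ± 0.07 in CLE3ox and 0.06 ± 0.08 in clv1-15 (adjusted p = 0.6 and 0.627). EMS1, THE1, PSY1R and GSO1 had log2 differences between -0.40 and 0.15 in clv1-15, none past the threshold (adjusted p 0.0518 to 0.328). The peptide gene RALFL33 differed between the wild types, with 1565.4 ± 51.3 in Col-0 and 626.5 ± 24.2 in Ler (2.46-fold, limma adjusted p = 6.66e-09), and had 0.03 ± 0.08 in CLE3ox and -0.16 ± 0.08 in clv1-15.

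**Figure D5:**
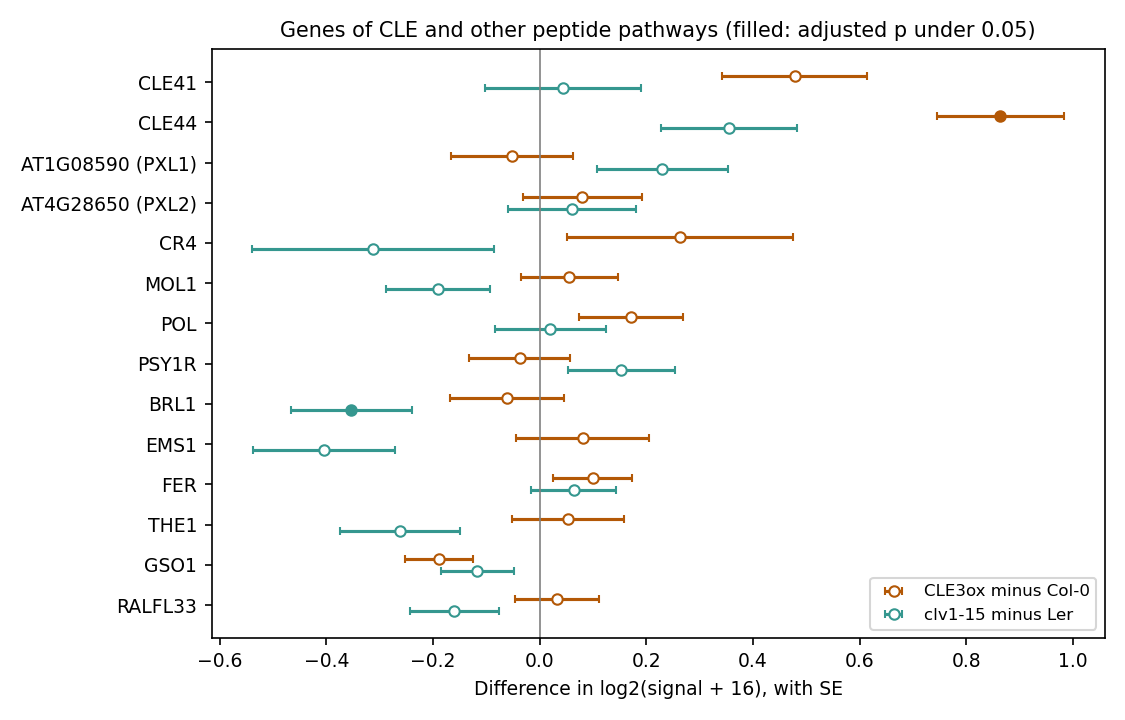
Log2 differences with SE in CLE3ox (orange) and clv1-15 (green) for the 14 named genes of peptide signalling that passed the filter; filled points passed an adjusted p of 0.05. CLE44 is filled in CLE3ox (0.86) and BRL1 in clv1-15 (-0.35).

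The named genes whose log2 signals ran most like those of each gene or probe set over the 13 arrays were found by Pearson's r, as a description. For CLE44 they were the light-harvesting gene LHCB4.2 (0.97), AT1G56300 (0.97) and the methionine sulfoxide reductase gene MSRB5 (0.96). MSRB5 took the same order of groups, with mean signals of 901.1 in Ler, 1024.2 in clv1-15, 3197.8 in Col-0, 3616.5 in line 12-1 and 4570.6 in line 17-3. CLE41 ran most like the plastid photosystem gene psaB (0.96), AT1G33080 (0.95) and AT3G12290 (0.95). For CR4 they were AT4G37110 (0.90), LHW, which encodes a transcription factor of root vascular cell number (0.89), and AT2G48060 (0.88).

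The CLE3ox-induced set ran most like AT1G06630 (0.96), AT5G01210 (0.90) and AT1G14210 (0.88). AT1G06630 had mean signals of 317.5 in Col-0 and 310.5 in Ler, 333.4 in clv1-15 and 396.4 and 405.7 in lines 12-1 and 17-3, a far narrower range. For the clv1-15-depleted set they were the carnitine transporter gene OCT1 (0.98), AT3G10530 (0.97) and the kelch F-box gene AT3G27150 (0.96), each lowest in clv1-15. OCT1 had 101.3 ± 21.1 there and 494.2 ± 58.1 in Ler (SD, n = 3 each). When group means were subtracted, the closest genes were others: AT2G39300 (0.93) and AT1G45110 (0.91) for CLE44, AT1G31300 (0.98) and AT5G06630 (0.97) for CLE41, and BGLU45 (0.92) and AT3G03550 (0.90) for CR4.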

How the data were processed

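Root RNA from 13 samples was hybridised to 1 ATH1 array each. Per the submitters' processing notes the deposited intensity values, on a linear scale, are MAS5 signals, with no version given. The authors' scaling shows in the values, whose mean with 2% trimmed on either side is 500 for each of the arrays, with medians of 189.8 to 200.1. The number of arrays limits the precision. Within groups, arrays correlated at r = 0.9873 to 0.9917 across probe sets, no pair of arrays was identical, and every column of values belonged to a sample.

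Signals were transformed to log2(signal + 16). Left out were 64 control sets and, among the rest, the dimmest 30% by mean signal (up to 54.6), which left 15922 and kept all 5 members. limma 3.58.1 in R 4.3.3 fitted 5 group means (eBayes with a trend) for 7 comparisons. The difference called CLE3ox averages lines 12-1 and 17-3, so its SE leaves out how far these lines differ. The fit was tested on simulated data.

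The CLE3ox-induced set is 260795_at and the clv1-15-depleted set is 262728_at. Of the probe sets, 13513 had 1 gene name, 503 several and 8730 none, and 13436 were matched to TAIR10.1. List names that stand for several genes were left out. The members and lists were chosen with earlier results of these data known, as was the grouping by bioD signal (divided at 3500). Named by rule are the 5 members, the 3 single-gene sets with the highest r to each (2 after subtracting group means, for named members) and the measured list genes, of which examples are given. Replicate numbers were not taken to pair arrays: deviations of same-numbered arrays correlated at 0.02 to 0.18 for clv1-15 and Ler, at 0.23 and 0.17 (first) and -0.18 and -0.19 (second) for Col-0 with lines 12-1 and 17-3, and at 0.30 between the lines, where with 2 arrays each both numbers give 1 value. Alternatives were pseudocounts, filters, scalings, variance priors, array weights, replicate and bioD blocks, subsets of groups, and leaving out each array, where a group left with a single array borrows its spread from the rest.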

Additional observations from a re-analysis of the deposited data

How the results depend on the processing

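The limit throughout is 2 or 3 arrays per group. Signals near 0 (the CLE3ox-induced set in wild type, the clv1-15-depleted set in clv1-15) and the dim signals of CR4 carry the largest uncertainty. No tested log2 difference that passed changed sign under the alternatives. The rise of the CLE3ox-induced set in clv1-15 and the higher CLE44 in Col-0 than in Ler passed under every alternative run. Where a call changed, the cause was not tested, except that sets of 1 or 2 arrays per group hold fewer arrays. Within the low and high bioD sets, the CLE44 difference in CLE3ox was 0.87 and 0.85, and within the high set that of CLE44 in line 17-3 was 1.15, none past the threshold. For the clv1-15-depleted probe set the high-bioD arrays gave 0.69 in CLE3ox, 0.65 in line 12-1 and 0.72 in line 17-3, and the low-bioD arrays 0.54 in line 12-1, none past. With a pseudocount of 1, the same probe set had 0.67, 0.59 and 0.76 in CLE3ox, line 12-1 and line 17-3, none past. With a pseudocount of 64, CLE44 in line 12-1 (0.47), CLE41 in line 17-3 (0.56) and the CLE44 difference of effects (0.50) passed. CLE41 passed with the bioD block in CLE3ox (0.54), in line 17-3 (0.67) and in the difference of effects (0.49), and in line 17-3 also with quantile normalization (0.63) and robust eBayes (0.62). CLE44 passed in clv1-15 with median centring (0.39) and without the trend (0.36), and in the difference of effects with quantile normalization (0.53) and without the trend (0.51).

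Leaving out each array gave 0.55 to 0.61 for the clv1-15-depleted set in line 12-1, 0.39 to 0.65 for CLE41 and -0.90 to -0.59 for CR4 between Col-0 and Ler, and 0.44 to 0.64 for the CLE44 difference of effects. The count of probe sets past the threshold in CLE3ox was 390, with 64 and 55 within the low and high bioD sets and 209 to 378 without an array. In line 12-1 it was 69, with 16 and 20 within these sets, 127 with array weights and 25 to 54 without an array. In line 17-3 it was 531, with 116 and 103, and 187 to 429. Between the lines it was 42, with 2 and 1, 20 on these groups alone, and 13 to 46. In clv1-15 it was 2447, with 1507 to 1895 without an array, and for the difference of effects 1788, with 1155 to 1755. The replicate number as a block changed no call on the 5 members: CLE44 in CLE3ox had 0.83 (limma adjusted p = 0.00337), the clv1-15-depleted set 0.69 (adjusted p = 0.00167), and 343 probe sets passed. CLE44 and CR4 have no value with the dimmest 50% left out, where neither remains, and the difference of effects none on the compared groups alone, since it takes all 5.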
